A study of Mus musculus with 10 samples.

Results

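The genes described here encode the angiopoietins, their Tie receptors and 3 related secreted proteins, namely Angpt1, Angpt2, Tek, Tie1, Angptl2, Angptl4 and Svep1. They were taken by gene symbol from the deposited table of 54532 mouse genes, and all 7 were found. All 7 passed the filter of the test, a mean of at least 0.5 FPKM over the 10 lungs. FPKM scales the fragments counted on a gene to its length and to the size of the library, so that levels of different genes can be compared.

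The samples were lungs of wild-type C57/BL6 pups, operated on at postnatal day 7 (P7) and collected at P14. The paper used male or female pups, and the labels give no sex for single lungs. In the group with increased pulmonary blood flow (IncPBF, 5 lungs), a needle puncture from the abdominal aorta into the inferior vena cava had opened a left-to-right shunt. The sham group (5 lungs) had the same anesthesia and laparotomy without the puncture. RNA of the whole tissue was sequenced in bulk, so fewer cells of a type and less RNA per cell cannot be told apart. The comparison asks how the transcriptome of the whole lung differed between fistula and sham surgery. The libraries held 16103423 to 20318525 fragments on genes. The labels do not say that each library came from a separate mouse or litter, and p values measure the spread between these samples. Sftpc, a surfactant gene that defines alveolar type 2 cells, lay between 9583 and 14074 FPKM in the 10 lungs, and the groups overlapped. Ager, a gene of type 1 cells, ranged from 565 to 983 FPKM, but its groups did not overlap. Its highest fistula lung had 595 FPKM and its lowest sham lung 725 FPKM. The difference of Ager on the log2 scale was -0.54 (limma adjusted p = 0.00157, test described below). Xist, the RNA that silences an X chromosome in female cells, reached 52.4 to 66.5 FPKM in IncPBF lungs 2 to 5, while the other 6 lungs had at most 0.0770 FPKM. Ddx3y, a gene of the Y chromosome, had 21.8 to 24.6 FPKM in the sham lungs and 18.6 FPKM in IncPBF lung 1. IncPBF lungs 2 to 5 had at most 0.00926 FPKM. By these RNAs IncPBF lungs 2 to 5 were female, and IncPBF lung 1 and the sham lungs male. IncPBF lung 1 was thus the only fistula lung that resembled the sham lungs in sex-linked RNA. Surgery and sex nearly coincide in these lungs, so their effects on the genes below can hardly be told apart. Sham lung 5 stood apart in the club cell gene Scgb1a1, with 128 FPKM against 4802 to 11743 FPKM elsewhere.

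Angiopoietins are secreted ligands of Tie2, the receptor tyrosine kinase of endothelial cells that Tek encodes. Angpt1 is made by mesenchymal cells around vessels, activates Tie2 and keeps the endothelium quiescent, while Angpt2 is released by endothelial cells and opposes Angpt1 in many settings. Tie1 is the second receptor of the family and acts in complex with Tie2. The lung capillary bed is one of the richest sites of both receptors, and its growth accompanies alveolar septation after birth.

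Between the groups, 6 of the 7 genes passed the test. Angpt1, Tek, Tie1 and Angptl4 fell in the IncPBF group, Angpt2 and Angptl2 rose, and Svep1 did not pass. The test was limma's moderated linear model on log2(FPKM + 0.1), with Benjamini-Hochberg adjustment over all 15388 genes tested and a threshold of 0.05. By this criterion 32.3% of all genes tested were called, 16.1% higher and 16.2% lower in the IncPBF group. Of these calls 49.9% were higher, or 66.6% when each lung was rescaled to an equal total. The groups did not overlap in 4 of the 7 genes, 3 below (Angpt1, Tek and Angptl4) and 1 above (Angptl2), against 23.2% of all genes tested, 11.2% below and 12.0% above. The median log2 fold change of the 7 genes was -0.29, beside 0.01 over all genes tested. For the 4 genes without overlap, IncPBF lung 1 lay outside the range of the sham lungs by definition. Of the genes with overlap, it lay outside on the side of the change in Angpt2 and Tie1, and inside in Svep1. The share of all genes tested for which this holds was not counted. With log2 Xist in the model 3 of the 7 genes passed, as described after the single genes.

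**Figure D1:**
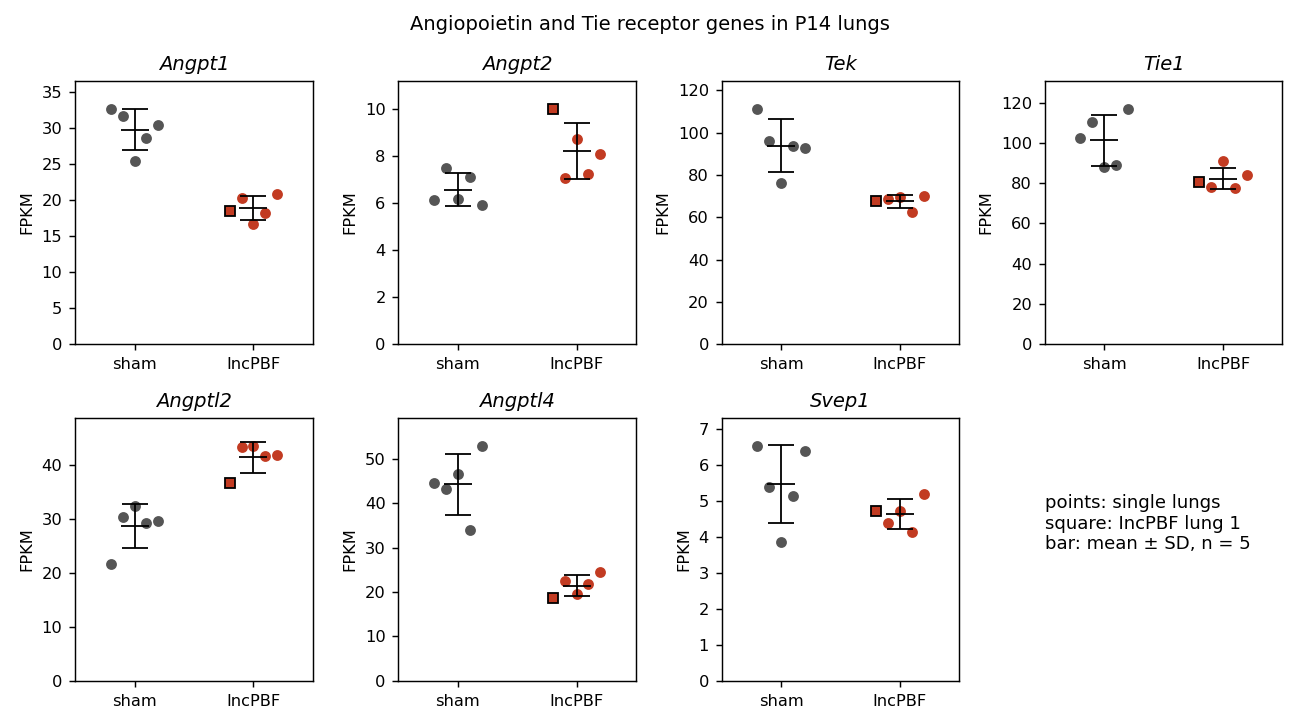
FPKM of each gene (y axis, linear from 0) in the 5 sham and the 5 IncPBF lungs (x axis). Points are single lungs, the black-edged square is IncPBF lung 1, and the bars give the mean and SD. The IncPBF lungs lie below all sham lungs for Angpt1, Tek and Angptl4 and above them for Angptl2, and the groups overlap for Angpt2, Tie1 and Svep1.

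Angpt1 (ENSMUSG00000022309), the activating ligand, lies on the minus strand of chromosome 15 of GRCm38 from 42424723 to 42676977. It was 18.5, 20.3, 16.7, 18.2 and 20.9 FPKM in IncPBF lungs 1 to 5. It was 32.6, 31.6, 25.4, 28.5 and 30.4 FPKM in sham lungs 1 to 5. Every IncPBF lung thus lay below the lowest sham lung. The means were 18.9 ± 1.69 and 29.7 ± 2.84 FPKM (SD of 5 lungs each), and they differed by -0.65 on the log2 scale (SE 0.08, limma adjusted p = 0.000202). These values rest on 1604 to 2257 fragments after the fistula and 2488 to 3101 after sham surgery. The antisense gene Gm17473 shares 737 exonic bases with Angpt1, but had a mean of only 0.105 FPKM. Of the mural and mesenchymal cells that make Angpt1, pericytes were represented by 8 marker genes. Kcnj8 rose, Notch3 and Trpc6 fell, and the other 5 pericyte genes did not pass, among them Pdgfrb with 80.0 ± 5.63 against 85.4 ± 11.6 FPKM. The summed FPKM of the pericyte genes was 244 to 277 after the fistula and 226 to 292 after sham surgery. Among 8 fibroblast genes, Pdgfra, the receptor of alveolar fibroblasts for platelet-derived growth factor, fell from 58.1 ± 12.4 to 22.4 ± 3.42 FPKM (-1.36 on the log2 scale, limma adjusted p = 9.01e-05). Col1a1 and Col1a2 rose and the other 5 did not pass, with a summed level of 891 to 1074 FPKM against 850 to 1039.5 FPKM. Whether these cells had a part in the fall of Angpt1 was not tested.

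Angpt2 (ENSMUSG00000031465), the context-dependent antagonist, lies on the minus strand of chromosome 8 from 18690263 to 18741562. IncPBF lungs 1 to 5 had 9.99, 7.07, 8.73, 7.24 and 8.11 FPKM. Sham lungs 1 to 5 had 6.15, 7.49, 6.19, 7.12 and 5.91 FPKM. The groups overlapped, with IncPBF lungs 2 and 4 below sham lung 2, and the highest value was that of IncPBF lung 1. The mean rose from 6.57 ± 0.690 to 8.23 ± 1.19 FPKM (SD of 5 lungs each), and the difference on the log2 scale was 0.31 (SE 0.10, limma adjusted p = 0.0368). Angpt2 was measured at 380 to 521 fragments in the sham lungs and 461 to 713 in the IncPBF lungs, the lowest numbers among the 7 genes. Its call was lost without IncPBF lung 1 (0.24 on the log2 scale, limma adjusted p = 0.0751), and also without IncPBF lung 3 or 5 or sham lung 1, 3 or 5 (adjusted p between 0.0612 and 0.0830). Angpt2 lies inside Mcph1 on the opposite strand, with 0 shared exonic bases and 1.05 FPKM of Mcph1 on average.

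The Angpt2 level as a ratio of the Angpt1 level, a usual summary of the ligand balance, was 0.541, 0.348, 0.523, 0.397 and 0.388 in IncPBF lungs 1 to 5. It was 0.189, 0.237, 0.244, 0.249 and 0.194 in sham lungs 1 to 5. The ratio of FPKM was thus higher in every IncPBF lung than in any sham lung, 0.439 ± 0.0867 against 0.223 ± 0.0288 (SD of 5 lungs each). It follows from the changes of the 2 genes already given, and was therefore not tested. Angpt1 remained the more abundant ligand in all 10 lungs. Among 7 genes linked with Angpt2 in sprouting endothelium, Pgf (placental growth factor) rose from 2.69 ± 1.06 to 4.27 ± 0.434 FPKM and Apln (apelin) fell from 40.3 ± 5.51 to 33.9 ± 0.930 FPKM. The differences were 0.72 and -0.24 on the log2 scale, with limma adjusted p values of 0.0244 and 0.0493. Esm1, a gene of tip cells, had 8.08 ± 1.04 FPKM after the fistula and 12.0 ± 6.28 FPKM after sham surgery and did not pass (adjusted p = 0.275 from limma). Pdgfb, Ccn1 and Ccn2 did not pass either, and Kcne3 was below the filter. The median of the 6 tested genes was -0.07 on the log2 scale.

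**Figure D2:**
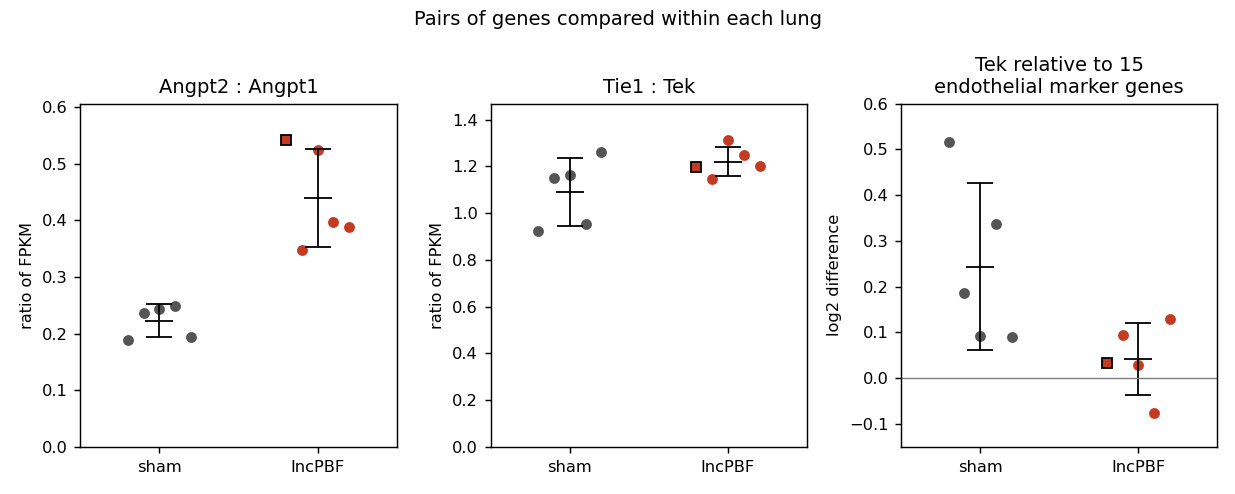
Ratio of the FPKM of Angpt2 to Angpt1 (left) and of Tie1 to Tek (middle), and log2 level of Tek minus the mean log2 level of 15 endothelial marker genes (right), in each lung. Points are single lungs, the black-edged square is IncPBF lung 1, and the bars give the mean and SD. The Angpt2 to Angpt1 ratio is 0.348 or more in all IncPBF lungs and 0.249 or less in all sham lungs, and the groups overlap in the other panels.

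For 4 of the 7 genes a promoter sequence was at hand from RefSeq (GRCm38.p6). In 2 of them, Tek and Angptl2, the 250 bases before the RefSeq start site held no annotated exon. These are shown because Tek is the main angiopoietin receptor and fell, while Angptl2 rose, both without overlap of the groups. Both are printed on the plus strand, Tek at chr4:94739039-94739288 and Angptl2 at chr2:33215711-33215960, inside an intron of Ralgps1. The Tek window ends directly before the gene of the table, which starts at 94739289. The Angptl2 window ends further before its gene, which starts at 33216069. Bases soon after the RefSeq start were found in an annotated transcript of the gene for Tek, and not for Angptl2. Capitals mark matches, on either strand, to any of 5 motifs searched.
Tek: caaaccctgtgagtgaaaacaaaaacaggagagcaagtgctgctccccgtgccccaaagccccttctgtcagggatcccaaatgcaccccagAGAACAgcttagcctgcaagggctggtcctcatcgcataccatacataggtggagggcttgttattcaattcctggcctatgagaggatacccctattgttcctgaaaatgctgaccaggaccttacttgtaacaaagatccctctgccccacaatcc
Angptl2: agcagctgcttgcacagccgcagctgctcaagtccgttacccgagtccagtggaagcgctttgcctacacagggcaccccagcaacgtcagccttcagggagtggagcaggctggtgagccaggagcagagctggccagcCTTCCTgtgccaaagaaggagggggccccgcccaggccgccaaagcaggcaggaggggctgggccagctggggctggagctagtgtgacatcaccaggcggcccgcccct
The window of Tek holds 1 match to the half-site of the glucocorticoid receptor, AGAACA, which is found in 16.1% of the 32851 promoter windows of this length. The window of Angptl2 holds 1 match, as its reverse complement, to the ETS-type motif AGGAAG, which is found in 29.5% of the windows. Neither holds the forkhead-type motif GTAAACA, present in 3.17% of all windows. The GATA-type motif AGATAA, present in 9.99%, had no match either. The same holds for the KLF-type motif CCACCC, present in 28.1%. The 5 motifs overlap nowhere in these windows. The matches describe the letters and are not measured binding sites.

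Tek (ENSMUSG00000006386, plus strand, from 94739289 to 94874976) was 67.5, 68.4, 69.3, 62.3 and 69.8 FPKM in IncPBF lungs 1 to 5. It was 111, 96.0, 75.9, 93.5 and 92.5 FPKM in sham lungs 1 to 5. All IncPBF lungs lay below all sham lungs, and the sham lungs spread more widely. The mean fell from 93.8 ± 12.5 to 67.5 ± 3.04 FPKM (SD of 5 lungs each), and the difference on the log2 scale was -0.47 (SE 0.09, limma adjusted p = 0.00223). Tek was measured at 5062 or more fragments in every lung.

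Tie1 (ENSMUSG00000033191, minus strand, from 118471191 to 118490061) was 80.7, 78.3, 90.9, 77.6 and 84.0 FPKM in IncPBF lungs 1 to 5. Sham lungs 1 to 5 had 102, 110.3, 88.1, 89.3 and 117 FPKM. The groups overlapped in IncPBF lung 3, which lay above sham lungs 3 and 4. The mean fell from 101 ± 12.6 to 82.3 ± 5.40 FPKM (SD of 5 lungs each), and the difference on the log2 scale was -0.29 (SE 0.09, limma adjusted p = 0.0225). Without IncPBF lung 2 or 4 or sham lung 2, Tie1 no longer passed, with adjusted p values between 0.0533 and 0.0561 from limma. The ratio of Tie1 to Tek was 1.22 ± 0.0624 after the fistula and 1.09 ± 0.145 after sham surgery, and the groups overlapped.

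Of 15 genes that mark endothelial cells, 9 fell (Pecam1, Cdh5, Flt1, Eng, Erg, Robo4, Ramp2, Calcrl and Vwf), 1 rose (Egfl7) and 5 did not pass (Cldn5, Kdr, Emcn, Esam and Sox18). Over all genes tested 16.2% fell and 16.1% rose. The median log2 fold change of the 15 genes was -0.25, and their summed level was 1565 to 1702 FPKM after the fistula and 1734 to 2150 FPKM after sham surgery. Vwf, the von Willebrand factor stored together with Angpt2 in Weibel-Palade bodies, was 13.4 to 14.3 FPKM after the fistula, below the 18.6 to 25.2 FPKM after sham surgery (-0.67 on the log2 scale, limma adjusted p = 9.42e-05). Egfl7, a matrix protein of growing vessels, rose from 84.4 ± 7.91 to 103 ± 10.9 FPKM (0.28 on the log2 scale, limma adjusted p = 0.0301). Against the mean of the 15 genes in the same lung, Tek stood 0.04 ± 0.08 higher after the fistula and 0.24 ± 0.18 higher after sham surgery on the log2 scale (SD of 5 lungs each). The difference of -0.20 had an exact permutation p of 0.0476 (two-sided, 252 assignments of the lungs), and the groups overlapped. It did not pass with the median of the markers (difference -0.25, exact permutation p = 0.111) or with only Pecam1 and Cdh5 as markers (difference -0.062, exact permutation p = 0.381), nor without any one of IncPBF lungs 1 to 4 or of sham lungs 1 and 4 (exact permutation p between 0.0556 and 0.119). Tie1 differed from the marker mean by 0.33 ± 0.08 after the fistula and 0.36 ± 0.07 after sham surgery, with a difference of -0.03 (exact permutation p = 0.5). Against Pecam1 and Cdh5 alone the sign turned, and Tie1 was higher by 0.11 in the IncPBF group (exact permutation p = 0.0317).

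The other genes of the receptor pathway were listed as regulators of the Tie receptors and parts of the signaling cascade behind them. All 21 were tested, of which 5 fell, 2 rose and 14 did not pass, with a median log2 fold change of -0.10. The 7 of 21 called stand beside 32.3% of all genes tested, so the share called in this list was close to the background, and the genes are described singly. Ptprb, the endothelial phosphatase VE-PTP that dephosphorylates Tie2, had 48.5 to 61.3 FPKM after the fistula and 82.0 to 123 FPKM after sham surgery. Its log2 difference of -0.83 (SE 0.10, limma adjusted p = 0.000175) was larger in size than that of Tek. Foxo1, the transcription factor that Tie2 signaling holds in check through Akt, fell from 14.3 ± 1.24 to 8.78 ± 0.620 FPKM (-0.70 on the log2 scale, limma adjusted p = 6.19e-05). Foxo3, a related factor, fell from 36.1 ± 6.55 to 15.5 ± 3.16 FPKM (-1.22 on the log2 scale, limma adjusted p = 0.000146). In these 3 genes the groups did not overlap. Of the kinases between receptor and FoxO, Pik3r1, the regulatory subunit of PI3K, fell by 0.68 on the log2 scale (adjusted p = 0.00189 from limma). Akt1 and Akt2 had log2 fold changes of 0.12 and 0.05 and Pik3ca one of -0.22, and none of these passed. Among adaptors, Shc1 rose by 0.17 and Grb7 fell by 0.30, while Grb2, Grb14, Dok2, Nck1 and the phosphatase Ptpn11 did not pass. Mmp14, a membrane protease that can shed the Tie2 ectodomain, rose from 47.4 ± 5.01 to 68.3 ± 2.56 FPKM (0.53 on the log2 scale, limma adjusted p = 0.000421). Nos3, the endothelial nitric oxide synthase, had 8.49 ± 0.831 against 8.99 ± 0.780 FPKM and did not pass (adjusted p = 0.461 from limma). The rest of this list (Pak1, Rasa1, Tnip2, Itgb1 and Itga5) did not pass.

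Angptl2 (ENSMUSG00000004105) encodes a secreted protein with the fold of the angiopoietins that does not bind the Tie receptors and acts through integrins and leukocyte receptors. It lies on the plus strand of chromosome 2 from 33216069 to 33247717, inside the oppositely oriented gene Ralgps1, with 0 shared exonic bases. The level was 36.6, 43.2, 43.4, 41.6 and 41.7 FPKM in IncPBF lungs 1 to 5. Sham lungs 1 to 5 had 21.7, 30.3, 32.3, 29.3 and 29.6 FPKM. The lowest IncPBF lung was above the highest sham lung, and lung 1 was the lowest of each group. The mean rose from 28.6 ± 4.07 to 41.3 ± 2.78 FPKM (SD of 5 lungs each), and the difference on the log2 scale was 0.54 (SE 0.10, limma adjusted p = 0.00216). Of 6 smooth muscle genes, Acta2, Myh11, Des and Actg2 rose and Tagln and Cnn1 did not pass, beside 16.1% of all genes tested that rose. The summed level of the 6 genes was 313 to 608 FPKM after the fistula and 112 to 246 FPKM after sham surgery. Their part in the rise of Angptl2 was not tested.

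Angptl4 (ENSMUSG00000002289), the inhibitor of lipoprotein lipase, lies on the minus strand of chromosome 17 from 33773750 to 33781575. It had 18.7, 22.5, 19.6, 21.9 and 24.4 FPKM in IncPBF lungs 1 to 5. It had 44.5, 43.2, 46.7, 34.0 and 52.9 FPKM in sham lungs 1 to 5. The groups did not overlap, and the highest IncPBF lung stayed well under the lowest sham lung. The mean fell from 44.3 ± 6.82 to 21.4 ± 2.30 FPKM (SD of 5 lungs each). The log2 difference of -1.03 (SE 0.11, limma adjusted p = 8.22e-05) was the largest in size among the 7 genes and ranked 605 among the 15388 genes tested. The values rest on 1188 to 1668 fragments after the fistula and 2138 to 3027 after sham surgery.

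Of 8 tested genes of the lipoprotein lipase axis, on which Angptl4 acts, 7 fell and Lmf1 did not pass, and their median log2 fold change was -0.75. Over all genes tested 16.2% fell. Lpl itself, the lipase that frees fatty acids from circulating lipoproteins, fell from 20.8 ± 2.41 to 11.3 ± 1.28 FPKM (-0.88 on the log2 scale, limma adjusted p = 8.67e-05). Gpihbp1, which carries the lipase across capillary endothelium, fell from 50.6 ± 4.70 to 38.8 ± 3.21 FPKM (-0.38 on the log2 scale, limma adjusted p = 0.00413). Lipg, the endothelial lipase and another target of Angptl4, fell from 39.0 ± 7.92 to 16.1 ± 1.05 FPKM (-1.25 on the log2 scale, limma adjusted p = 4.18e-05). Cd36, the fatty acid transporter of capillaries, fell from 313 ± 31.5 to 178 ± 16.1 FPKM (-0.81 on the log2 scale, limma adjusted p = 7.99e-05). Vldlr and the intracellular lipases Lipe and Pnpla2 fell by 0.42, 0.68 and 0.94 on the log2 scale. The groups did not overlap in any of the 7 genes that fell, while 11.2% of all genes tested had all IncPBF lungs below all sham lungs. Lipc was below the filter.

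Angptl4 is also a target of the PPAR fatty acid sensors. Of 6 tested genes that share this control, in a list not reported whole, 4 fell and Plin2 and Fabp4 did not pass. Their median log2 fold change was -0.27, and 16.2% of all genes tested fell. Pdk4, the kinase that holds back pyruvate oxidation, fell from 11.7 ± 2.89 to 2.31 ± 0.601 FPKM (-2.28 on the log2 scale, limma adjusted p = 1.96e-05). Acadm, an enzyme of fatty acid oxidation, and Hilpda, a lipid droplet protein, fell by 0.44 and 0.34 on the log2 scale, and Cpt1a, which admits fatty acids to mitochondria, by 0.21. Ucp3 was below the filter. Adipocytes, another source of Angptl4, were scarcely represented. Of 6 adipocyte genes only Cidec passed the filter, Lep was listed at 0 in all lungs, and their summed level was 1.17 to 2.79 FPKM after the fistula and 1.83 to 4.13 FPKM after sham surgery.

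**Figure D3:**
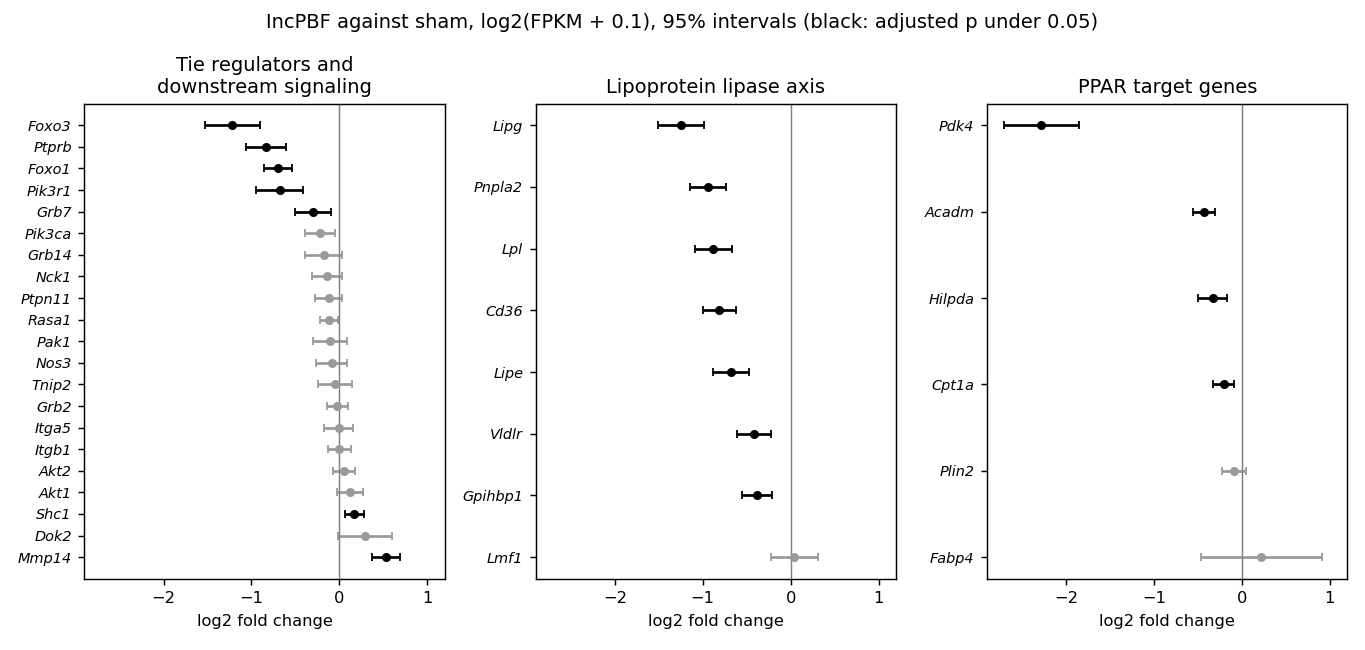
Log2 fold change (x axis, IncPBF against sham) of each tested gene (y axis) of 3 lists, with 95% intervals from limma. Black marks an adjusted p under 0.05 and grey the rest. Of the genes tested, 5 of 21 fell and 2 rose in the Tie list, 7 of 8 fell in the lipase list and 4 of 6 fell in the PPAR list. Over all genes tested 16.2% fell and 16.1% rose.

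Svep1 (ENSMUSG00000028369) encodes a very large matrix protein that binds Tie1 and integrins and is needed for lymphatic vessels to form. It lies on the minus strand of chromosome 4 from 58042442 to 58206859. It was 4.72, 4.37, 4.73, 4.14 and 5.20 FPKM in IncPBF lungs 1 to 5. It was 6.52, 5.39, 3.84, 5.14 and 6.39 FPKM in sham lungs 1 to 5. Sham lung 3 was the lowest of all 10 lungs, and the groups overlapped. The means were 4.63 ± 0.404 and 5.46 ± 1.09 FPKM (SD of 5 lungs each). The log2 fold change was -0.21 with a 95% interval from -0.50 to 0.08, and it did not pass (adjusted p = 0.242 from limma). Without sham lung 3 it was -0.33 and passed (adjusted p = 0.0214 from limma). Svep1 shares 2244 exonic bases with Gm26889 on the opposite strand, which was listed at 0 FPKM in every lung. Of 7 genes listed as possible binding partners of Svep1 and Angptl2, not all of them established as such, Itga4 rose by 0.52 on the log2 scale (adjusted p = 0.00102 from limma). Pear1, Itgb5 and Sdc4 fell by 0.31, 0.34 and 0.25, and Itga9, the integrin subunit that binds Svep1, had 34.9 ± 3.02 against 35.3 ± 2.87 FPKM and did not pass. The leukocyte receptors Pirb and Lilrb4a did not pass.

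A further 5 genes of the family, Angpt4, Angptl1, Angptl6, Angptl7 and Angptl8, were low. Angpt4, Angptl1 and Angptl6 had means of at most 0.460 FPKM in either group and were not tested. Angptl7 was 1.41 ± 0.978 against 1.18 ± 0.399 FPKM and Angptl8 2.22 ± 0.921 against 1.97 ± 0.376 FPKM, and neither passed.

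In the sham lungs the order of the levels was Tie1, Tek, Angptl4, Angpt1, Angptl2, Angpt2 and Svep1, from 101 to 5.46 FPKM. The ranges of Tie1 and Tek, of Angpt1 and Angptl2 and of Angpt2 and Svep1 overlapped between sham lungs, and those of the other neighbours in this order did not. In the IncPBF lungs the order was Tie1, Tek, Angptl2, Angptl4, Angpt1, Angpt2 and Svep1. There only the neighbours Angptl4 and Angpt1 overlapped in range, although Angptl4 was higher in each of the 5 lungs. Angptl2 thus moved from the fifth to the third place and stood above Angptl4 in all IncPBF lungs and below it in all sham lungs. In the order over all genes tested, Tie1 and Tek stood high, with only 2.50% and 3.02% of genes at a higher mean FPKM, and Svep1 stood near the middle, with 52.9% above it.

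When log2 Xist entered the model beside the group, 741 of all genes and 3 of these 7 genes passed. They were Angpt1 (-0.65 on the log2 scale, limma adjusted p = 0.0343), Angpt2 (0.60, adjusted p = 0.0487) and Angptl4 (-1.20, adjusted p = 0.00865). Tek, Tie1 and Angptl2 kept their direction, with log2 fold changes of -0.44, -0.30 and 0.36, and did not pass (adjusted p = 0.137, 0.306 and 0.252 from limma). IncPBF lung 1 is the only lung that parts Xist from the group in this fit. The estimates thus rest in effect on this single fistula lung against the sham lungs, and the calls do not separate surgery from sex. Angpt2, which was highest in IncPBF lung 1, went from 0.31 in the main fit to 0.60. In the model without Xist its call was lost when this lung was left out. The standard errors of the 7 genes rose to between 0.15 and 0.23. In the same fit 4 of the 21 genes of the Tie list, 4 of the 8 tested lipase genes, 2 of the 6 tested PPAR genes and 1 of the 15 endothelial genes passed. So did 1 of 8 fibroblast genes, 1 of 7 binding partners, 1 of 6 tested lymphatic genes and 1 of 4 tested mesothelial genes. None of the 6 smooth muscle, 8 pericyte, 6 tested sprouting and 4 erythroid genes passed.

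**Figure D4:**
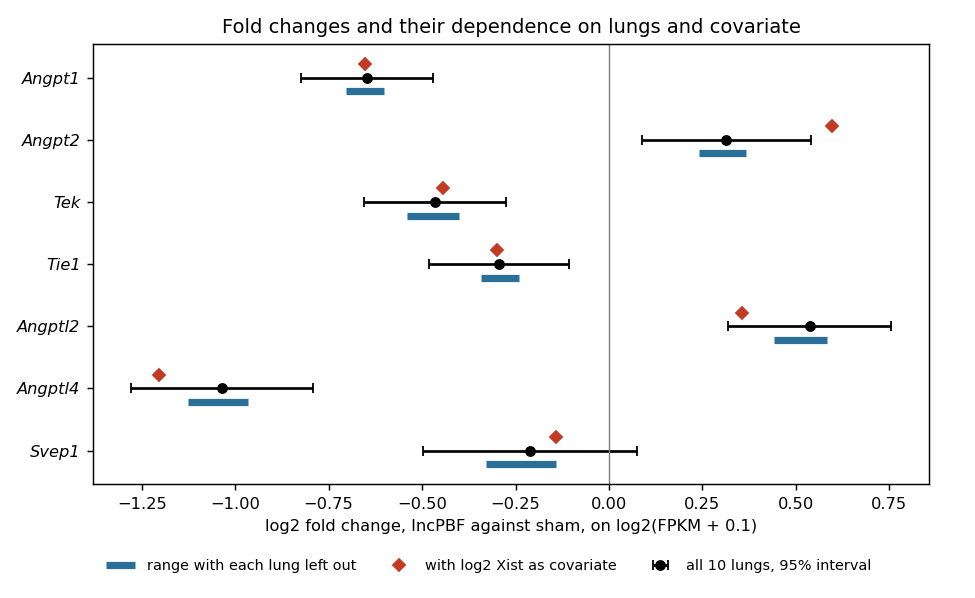
Log2 fold change of each gene on log2(FPKM + 0.1), IncPBF against sham (x axis). Black points and bars are the estimates of limma with 95% intervals over all 10 lungs, red diamonds the estimates with log2 Xist as a covariate, and blue bars the range with each lung left out in turn. No estimate crosses 0 for any of the 7 genes, and of the intervals drawn only that of Svep1 includes 0. No intervals are drawn for the covariate estimates, whose standard errors were 0.15 to 0.23.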

How the data were processed

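The authors isolated RNA from P14 lungs (column kit in the methods, Trizol in the labels), prepared NEBNext Ultra libraries and sequenced them on a NovaSeq instrument. The authors deposited 1 table of FPKM per gene and lung, with the gene length. The submitters' processing notes name Bowtie 0.12.2 and the builds hg38, GRCm38 and mm10 without their roles, and the counting software and strand setting are not given in the sources used here. Coordinates matched GENCODE M21 on GRCm38 for 98.3% of 54409 shared genes. For Angptl4 they differed, and those of the table are printed.

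Sample groups came from the treatment label. Since the column names of the IncPBF lungs differ from their titles, these columns were matched to the group and not to single samples, and lung numbers follow the columns. Within a lung, the product of FPKM and gene length moved in equal steps for 100% of values above 0 (within 0.01 fragment, or within rounding for large counts), which gave the fragments per gene. A single fragment on 1 kb was worth 0.0482 to 0.0580 FPKM, and these depths cover counting error only. No pair of lungs agreed within sampling noise, the closest with a chi-square of 6.93 per gene.

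Genes with a mean of at least 0.5 FPKM were tested with limma 3.58.1 in R 4.3.3 (lmFit, then eBayes with a trend) on log2(FPKM + 0.1), which slightly lowers the fold changes of low genes. Levels relative to endothelial genes were compared by an exact two-sided permutation test with 252 assignments, with a smallest p of 0.00794. Tables were made with pandas 2.3.3 under Python 3.11.15, and figures with matplotlib 3.10.9. The fit was tested on simulated counts, where it recovered 89.5% of 200 2-fold changes among 15279 genes and made 5 false calls. The simulation used the same spread for all genes, no smaller changes and no sex difference, so it does not cover those features of these data. The 7 genes, the lists and the motifs were chosen with earlier results of these data known. A few genes of the Tie pathway, PPAR and family lists are not reported here, for a reason unrelated to their values. They were left out of the counts and medians of these lists after results were known, while the other lists, the endothelial and lipase lists included, are whole. Named are the 7 genes, genes of the lists, and for each of the 7 the 3 genes of at least 1 FPKM with the most similar deviations from the group mean. Sftpc, Ager and Scgb1a1 were added to describe the libraries, and Xist and Ddx3y as signs of sex. Promoter windows are from RefSeq, cut before the start site, and those with exonic bases in GENCODE M21 were left out. The symbols Ccn1 and Ccn2 stand for Cyr61 and Ctgf in the table. Alternatives changed the pseudocount, filter, scaling, eBayes trend, covariate, replicate block, test or lungs, 1 at a time, and for Tek and Tie1 against endothelial genes also the marker summary.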

Additional observations from a re-analysis of the deposited data

Results flagged for a closer look

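Among 24 sets of 5 lungs that were examined for a lung far from the others, 2 held one, and chance alone gives about 1 in 20. Both concern Angptl2. The lowest IncPBF lung, lung 1, had 36.6 FPKM, and its gap to the nearest other lung was 0.736 of the range of its group. The lowest sham lung, also numbered 1, had 21.7 FPKM with a gap of 0.712 of the range, and the limit for 5 lungs is 0.71. The groups did not overlap for Angptl2 with these lungs included. Without IncPBF lung 1 its log2 fold change was 0.58 and without sham lung 1 it was 0.44, and it passed the adjusted threshold in limma in both cases.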

How the results depend on the processing

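No fold change of the 7 genes changed direction under the 21 alternatives. Angpt1 and Angptl4 passed in all of them, with log2 fold changes of -0.70 to -0.57 and -1.20 to -0.95. With log2 Xist as a covariate the calls among all genes numbered 741 and those among the 7 genes 3. With each lung left out they numbered 3865 to 5234 and 5 to 6. Angpt2 lost its call in 8 alternatives, Tie1 in 4, and Tek and Angptl2 in 1, the Xist covariate. Angpt2 was among the losses with no filter (adjusted p = 0.0715 from limma, where more genes were tested) and with the replicate block (0.0848). The share of calls among all genes that were higher in the IncPBF group was 49.9% in the main fit. It was 66.6% with equal totals and 66.1% in limma-voom on the recovered fragments. Deviations from the group mean of same-numbered lungs correlated at -0.07 to 0.09 across genes. Of the 5 IncPBF lungs, 2 correlated best with the sham lung of their own number. This gave no clear sign that the numbers pair the lungs, but it cannot exclude a pairing. With the replicate block 4872 genes and 5 of the 7 genes passed. Tek against the endothelial markers was -0.25 with the median of the markers, -0.062 with Pecam1 and Cdh5 only, -0.20 in the replicate block (exact permutation p = 0.125, where the smallest possible is 0.0625, an alternative chosen after the data were seen), and -0.24 to -0.13 with each lung left out. The corresponding values of Tie1 were 0.11 with Pecam1 and Cdh5 only, the sole reversal, -0.03 in the replicate block, and -0.05 to -0.01 with each lung left out. The cause of these differences was not tested. Depth limits Angpt2 most, with as few as 380 fragments in a lung.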

Other observations

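Other vessel and surface cells were described by marker lists as well. Lyve1, a hyaluronan receptor of lymphatic endothelium and some macrophages, fell from 137 ± 15.9 to 78.0 ± 15.9 FPKM (SD of 5 lungs each), and the difference on the log2 scale was -0.83 (limma adjusted p = 0.000989). Flt4, the receptor VEGFR3, fell from 10.7 ± 2.08 to 7.10 ± 0.485 FPKM (-0.56 on the log2 scale, limma adjusted p = 0.00553), and Pdpn, which alveolar type 1 cells also express, fell by 0.36. Prox1, the transcription factor that defines lymphatic endothelium, was 0.601 ± 0.125 against 0.627 ± 0.0767 FPKM and did not pass, nor did Mmrn1 and the tested copy of Ccl21a, a gene with near-identical copies. Of 4 tested mesothelial genes all 4 fell, among them Upk1b from 51.8 ± 7.23 to 29.2 ± 2.17 FPKM and Msln from 41.3 ± 15.1 to 21.9 ± 5.69 FPKM. Over all genes tested 16.2% fell. Of 4 erythroid genes 3 fell and Hbb-bs did not pass, and their summed level was 239 to 1881 FPKM after the fistula and 1446 to 2326 FPKM after sham surgery. None of 5 tested cardiac muscle genes and of 4 tested platelet genes passed.

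Taking the group means off, the deviations of the 10 lungs were compared between genes, as a description of these libraries, which share depth and tissue composition. Tek and Svep1 varied alike (Pearson r = 0.86), as did Tie1 and Svep1 (r = 0.71) and Tek and Angpt1 (r = 0.70), while Tek and Angptl2 varied oppositely (r = -0.72). The most similar genes were then picked among 13534 genes with a mean of at least 1 FPKM. With so many genes and 10 lungs, high r values can arise by chance, and how high was not computed. Angpt1 was most like Cav2, Cdo1 and Itgb1 (r = 0.96 to 0.97). Tek was most like Wdfy4, Enpp2 and Abcb1a (r = 0.95 to 0.96). Tie1 was most like 6430548M08Rik, Col4a2, a chain of basement membrane collagen, and Map3k11 (r = 0.97 to 0.98). Angptl2 was most like Loxl1, an enzyme of elastic fibre crosslinking, Rem1 and Apopt1 (r = 0.96 to 0.97). Svep1 was most like Veph1, Agap1 and Il17rd (r = 0.97 to 0.98). Angptl4 was most like March9, Egfr and Pkd2l2 (r = 0.92). Angpt2 was most like Gm8494, Gm6851 and Bcs1l (r = 0.92 to 0.97).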
